A study of Drosophila melanogaster with 63 samples.

Results

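Cytochrome P450 genes encode haem enzymes that insert oxygen into steroids, fatty acids and foreign compounds. The members described here are the genes whose probe symbol began with Cyp and a digit, together with spook (spo), whose product is itself a P450. That rule found 74 of the 12424 measured features. It also took in Cyp1 and Cyp40, which encode cyclophilins (peptidyl-prolyl isomerases) and share only the letters of the name, so the P450 genes number 72 and the cyclophilins are given apart at the end. By family name, 33 of the P450 genes belong to clan 3, 27 to clan 4, 7 to the mitochondrial clan and 5 to clan 2.

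In insects, clan 2 and the mitochondrial clan hold the enzymes that make and break down ecdysteroids, the steroid hormones of moulting and embryonic morphogenesis. Clan 3 and clan 4 hold many enzymes that act on plant toxins, insecticides, fatty acids and pheromones, and most of their members have no assigned substrate. In the Drosophila embryo spo is known for an early step of ecdysteroid synthesis, and embryos that lack it fail to make cuticle.

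The study profiled whole Drosophila melanogaster embryos of 3 genotypes, wild type, eve mutant and ftz mutant, aged 2, 3, 6, 7, 8, 9 and 10 h from egg laying; each of the 21 groups had 3 arrays, which makes 63. The genes even skipped (eve) and fushi tarazu (ftz) encode pair-rule transcription factors of segmentation; both mutant stocks were kept over balancer chromosomes marked with GFP, and the collected embryos were genotyped. Each array set Cy3-labelled embryo RNA against a Cy5-labelled reference pooled from embryos of 0 to 22 h. Neither alleles nor the background of the wild type stock were named, so mutation and stock background cannot be told apart, and nothing stated that the 3 arrays of a group were separate collections, so a p-value measures the spread between these arrays.

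Values are log2 ratios as deposited, quantile normalised, with a median of 0.01 on every array and limits of -3.74 and 2.78. A value near 2.78 is therefore at the ceiling of the scale. The direction of the ratio is not stated. It is taken here as embryo over reference, which is likely because the median of 15 measured maternal transcripts went from -0.45 at 2 h to -1.05 at 10 h in wild type and that of 8 cellularization transcripts from 0.79 to -0.74. With the sign turned, every higher below becomes lower. A level is relative to the same gene in the reference, so levels of different genes were not compared. In whole embryos, fewer cells of a type and less RNA per cell cannot be told apart. Transcripts called changed passed a Benjamini-Hochberg adjusted p of 0.05 in limma over all 12424 features.

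Some arrays stood apart or went against their labels. The correlation between arrays of a group ran from 0.51 to 0.95, and the wild type 9 h replicate 3 had the lowest mean correlation with its group, 0.53. The eve transcript was lower in eve mutant than in wild type arrays at 2 h (mean -1.2 against 0.507) and at 6 to 10 h, but not at 3 h (0.17 against -0.04). The ftz transcript differed little in ftz mutants at 2 h (0.67 against 0.82 in wild type). Array ages, estimated from the features other than P450 genes against the wild type course, ran ahead of the labels by 1.07 h in eve mutants and 1.13 h in ftz mutants relative to wild type over 6 to 10 h. Ages were sought between 2 and 10 h only, so no array labelled 10 h could run ahead of its label. Slide numbers in the labels fell into 6 runs. At 3 h each genotype lay in a run of its own, so run and genotype cannot be told apart there. Over 6 to 10 h, ftz mutant and wild type arrays shared a run at 6 and 7 h only, with 3 arrays against 2. For that comparison run and genotype can hardly be told apart. Some slide numbers recur, so a run is no established batch.

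Most P450 ratios moved little. The values used are ratios without signal intensities, so a steady transcript and one too weak to measure cannot be told apart. In wild type the range of the 7 group means had a median of 0.28 log2 units over the 72 P450 genes and 0.40 over all features, and 28 of the 72 had a spread over the 63 arrays above the median feature. The time course F test called 16 of 72, where 38.7% of all features were called. The spread between replicate arrays was alike, with a median SD within groups of 0.17 for P450 genes and 0.17 for all features. A range of at least 1 log2 unit was reached by 7 P450 genes, which is 9.72% of them, against 10.2% of all features. Among the 16 that were called, 8 were highest at 2 or 3 h, 6 at 9 or 10 h and 2 between. With the sign of the ratio turned the tally would be that of the lowest means, 7 at 2 or 3 h, 2 at 9 or 10 h and 7 between. The 13 comparisons, which leave out the slopes within each mutant alone, called none of 19 of the 72, and 5 of these 19 were called in such a slope. The genes of the 19 with the smallest range over the 21 groups were Cyp4ac2 with 0.18, Cyp317a1 with 0.24, Cyp4d21 with 0.30, Cyp6a13 with 0.32 and Cyp311a1 with 0.33.

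**Figure D1:**
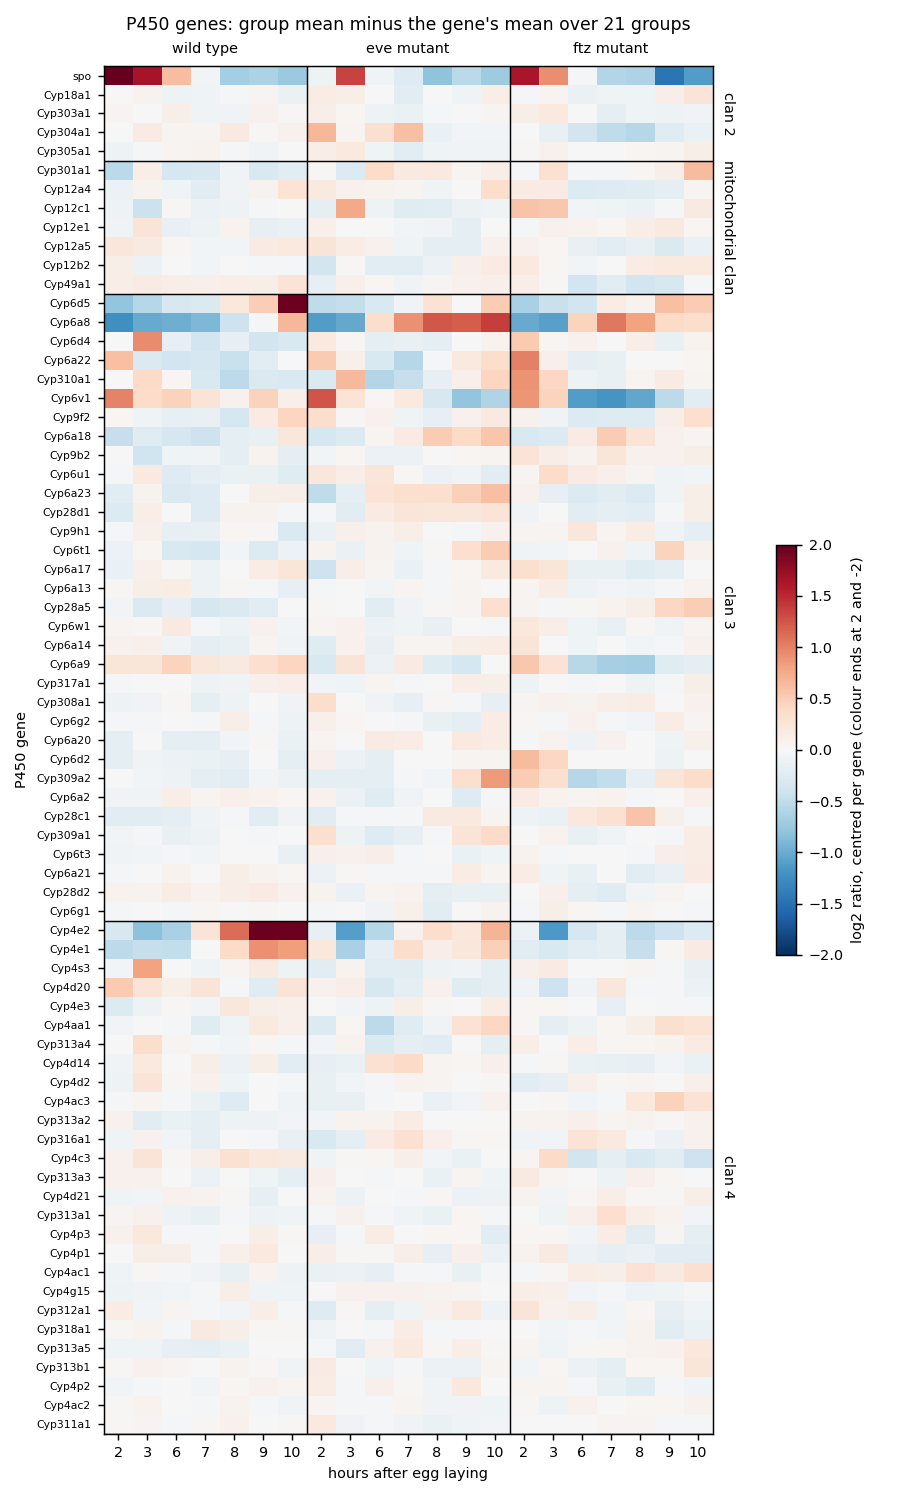
Each row is 1 of the 72 P450 genes, grouped by clan, and each column 1 of the 21 groups, ordered by hours after egg laying within genotype; colour is the group mean (3 arrays) minus the gene's mean over the groups, in log2 units. The widest ranges over the 21 groups are those of spo (3.74), Cyp4e2 (3.10), Cyp6d5 (2.75), Cyp6a8 (2.61) and Cyp6v1 (2.44), and many other rows stay pale.

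The widest wild type change was that of spo, which fell through the course by 3.02 log2 units between its highest and lowest group means. In wild type at 2 h its values were 2.14, 2.06 and 2.78, the last of them at the ceiling. At 3 h they were 1.91, 1.58 and 1.60, at 6 h 0.68, 0.49 and 0.83, and at 7 h 0.32, -0.13 and -0.23. Every array at 2 and 3 h was above every later array. Values at 8 h were -0.65, -0.52 and -0.73, at 9 h -0.91, -0.65 and -0.20, and at 10 h 0.20, -1.05 and -1.23. From 8 h on the arrays no longer separated by time, and at 10 h replicate 1 stood above the other two. The time course was called (adjusted p = 7.31e-12), as was the fall over 6 to 10 h (slope -1.31 log2 units over 4 h, SE 0.30, adjusted p = 9.2e-04). The step from 3 to 6 h was -1.03 (SE 0.33, adjusted p = 0.0474), and it lost its call without any 1 of the wild type replicate numbers (adjusted p from 0.124 to 0.204). The step from 2 to 3 h was -0.63 and was not called (adjusted p = 0.24).

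At the earliest time eve mutants differed from wild type in spo. In eve mutants at 2 h the values were -0.09, -0.07 and 0.02, and at 3 h they were 1.29, 1.37 and 1.56. All eve mutant arrays at 2 h lay below all wild type arrays at 2 and 3 h, while at 3 h the eve mutant arrays came within reach of the wild type ones. The difference at 2 h was -2.37 (SE 0.33, adjusted p = 5.52e-07); at 3 h it was -0.29 and not called (adjusted p = 0.682). The eve mutant arrays at 2 h had estimated ages of 2.4, 2.0 and 2.1 h, and correlated with the wild type course at 0.615, 0.575 and 0.551. The ftz mutant arrays at 2 h correlated with it at 0.813, 0.778 and 0.808. Ages under 2 h could not be estimated, and the part of stage in the difference was not tested. Within the single run of slide numbers that held both genotypes at 2 h, the difference was -2.14. In ftz mutants spo stood at 2.06, 1.31 and 1.67 at 2 h and at 0.94, 1.03 and 0.98 at 3 h, differences of -0.65 and -0.71 that were not called (adjusted p = 0.312 and 0.159). With only the arrays of that comparison in the fit the latter was called (adjusted p = 0.00677). Averaged over 6 to 10 h the difference from wild type was -0.46 in ftz mutants (SE 0.15, adjusted p = 0.0106) and -0.18 in eve mutants (adjusted p = 0.354). The ftz call did not hold with estimated age as a covariate (-0.04, adjusted p = 0.909), with the replicate number as a block (adjusted p = 0.0659) or without ftz replicate 3 (-0.26, adjusted p = 0.173).

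The other measured genes of the ecdysteroid pathway were taken from a list of 20, of which 12 had a row of their own: spo, Cyp18a1 and Cyp6t3 among the members, dib, shd, EcR, usp, ftz-f1, Eip78C, br, Hr3 and Hr39 beside them. Over 6 to 10 h in wild type 5 of the 12 were called, 3 higher and 2 lower (8.03% and 7.56% of all features), with a median slope of 0.09 against -0.02 over all features. The P450 gene disembodied (dib), a mitochondrial hydroxylase of ecdysteroid synthesis whose symbol keeps it out of the members, was the other one to fall. Its values at 6 h were 0.42, 0.71 and 0.87 and at 10 h -0.59, -0.71 and -0.37 in wild type. The groups did not overlap, and the slope was -1.30 (SE 0.13, adjusted p = 9.27e-11). Averaged over 6 to 10 h, dib was lower in both mutants, with differences of -0.42 for eve (adjusted p = 9.75e-07) and -0.62 for ftz (adjusted p = 1.67e-10). For dib and the other listed genes that are not members, no fit with estimated age or slide runs is given. The part of stage in their differences was not tested.

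Enzymes of the late steps and of hormone breakdown moved less. Shade (shd), which makes the active hormone from ecdysone, had a wild type slope of 0.42 that was not called (adjusted p = 0.134) and was higher by 0.34 in ftz mutants over 6 to 10 h (adjusted p = 0.00294). Cyp18a1, which inactivates the hormone, kept within group means of -0.44 in eve mutants at 7 h and 0.03 in ftz mutants at 10 h, and none of the 13 comparisons called it; within ftz mutants alone its slope was 0.40 (adjusted p = 0.00313). Cyp6t3, reported to act in ecdysteroid production of the larval gland, showed a wild type slope of -0.07 and was higher by 0.10 in ftz mutants (adjusted p = 0.0473).

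Receptors and target genes of the hormone rose in part. EcR, the ecdysone receptor, rose by 0.33 over 6 to 10 h in wild type (adjusted p = 0.0256). Hr3 and Hr39, hormone-responsive nuclear receptors, rose by 0.55 and 0.47 (adjusted p = 0.00825 and 1.18e-04). The partner receptor usp (0.13), ftz-f1 (0.19), Eip78C (-0.09) and br (0.06) were not called for that slope. Over 6 to 10 h the list gave 4 higher and 1 lower of 12 in eve mutants, where 19.6% of all features were higher and 19.8% lower, and 6 higher and 2 lower in ftz mutants, where 20.7% and 19.7% were. Named among them, Hr39 was higher by 0.26 and 0.28 and br by 0.23 and 0.10.

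**Figure D2:**
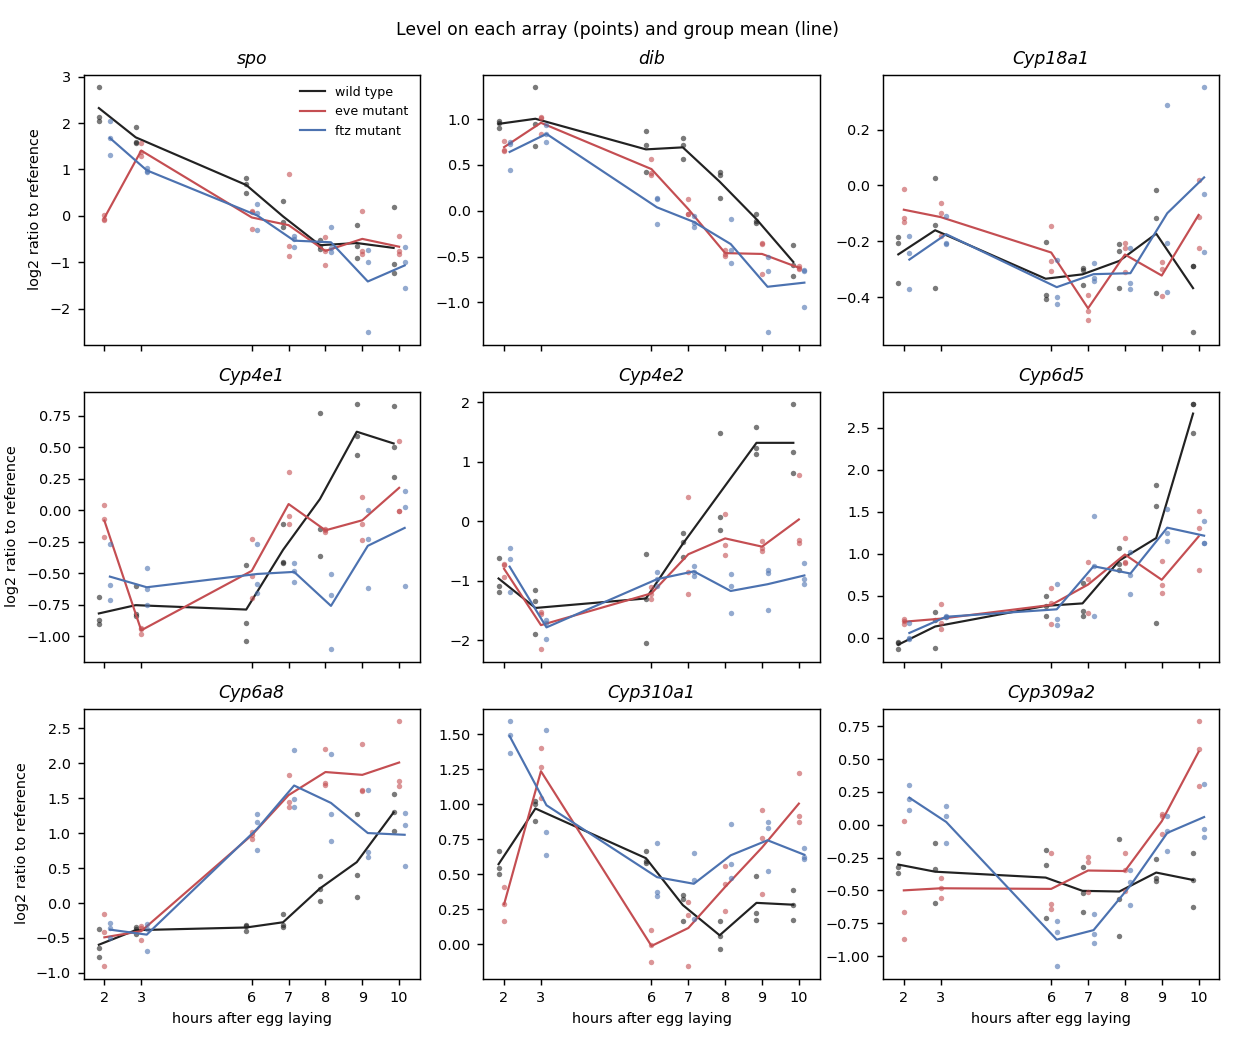
Points are the values on single arrays and lines the group means of 3 arrays, as log2 ratio to the reference against hours after egg laying, for 8 P450 genes of the members and dib. Wild type falls from 2 h in spo and rises late in Cyp4e1, Cyp4e2 and Cyp6d5, where both mutants have lower slopes over 6 to 10 h. Cyp6a8 stands above wild type at 6 and 7 h on every array of both mutants.

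P450 enzymes need electron donors, and 4 of 6 genes listed as partners were measured: Cyt-b5, Cyt-b5-r, Fdx1 and Fdx2. No other donor is covered here, and whether Cyt-b5-r gives electrons to P450 enzymes was not tested. Between 3 and 6 h in wild type Cyt-b5, the haem protein cytochrome b5, rose by 0.67 (adjusted p = 0.0027) and the related Cyt-b5-r by 1.14 (adjusted p = 0.00407), while the mitochondrial ferredoxins Fdx1 (-0.02) and Fdx2 (-0.08) were not called. Averaged over 6 to 10 h, Fdx2 was higher by 0.35 in eve mutants (adjusted p = 1.24e-05) and by 0.16 in ftz mutants (adjusted p = 0.0277). Lower in eve mutants were Fdx1 (-0.18, adjusted p = 0.00224) and Cyt-b5-r (-0.28, adjusted p = 0.0488), and Cyt-b5 was higher by 0.18 in ftz mutants (adjusted p = 0.0254). Before 6 h Cyt-b5 was higher in ftz mutants by 0.59 at 2 h (adjusted p = 0.00786) and 1.01 at 3 h (adjusted p = 2.97e-06). In eve mutants Cyt-b5 was higher by 0.50 at 3 h (adjusted p = 0.0225) and Cyt-b5-r by 1.003 at 2 h (adjusted p = 0.0041).

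In the mitochondrial clan of 7, the time course called 2 genes, Cyp12a5 and Cyp12c1. Cyp12c1 values in wild type at 3 h were -0.53, -0.03 and -0.77. In eve mutants at 3 h they were 0.46, 0.96 and 0.80, and in ftz mutants 0.53, 0.44 and 0.59. Both mutants were above wild type on every array, by 1.18 (SE 0.12, adjusted p = 1.61e-09) and 0.96 (SE 0.12, adjusted p = 1.24e-07), and the eve difference came to 0.83 once slide runs were a term in the fit (adjusted p = 0.0824). At 2 h Cyp12c1 stood at 0.52, 0.59 and 0.57 in ftz mutants against -0.12, -0.08 and -0.15 in wild type. That difference of 0.67 was called (adjusted p = 1.6e-04), and in eve mutants at 2 h the arrays read -0.23, -0.15 and -0.20, close to wild type. From 3 to 6 h in wild type Cyp12c1 rose by 0.45 (adjusted p = 0.0127), a call lost without wild type replicate 1 (adjusted p = 0.16) or 3 (adjusted p = 0.204). Cyp12a4, linked to resistance to the insecticide lufenuron, rose by 0.41 over 6 to 10 h (adjusted p = 0.0195). Cyp12b2 was lower in eve mutants at 2 h (-0.49, adjusted p = 0.0034). Cyp301a1, known for adult cuticle formation, was higher over 6 to 10 h by 0.44 in eve mutants and 0.40 in ftz mutants (adjusted p = 0.00239 and 0.00537). Both calls were lost without wild type replicate 1 (adjusted p = 0.0588 and 0.0951) and with the 5 times averaged (adjusted p = 0.0749 and 0.0946). The ftz call was also lost with slide runs as a term (adjusted p = 0.109) or estimated age as a covariate (adjusted p = 0.136). With that age the eve difference was 0.40 (adjusted p = 0.0296), and within a shared run of slide numbers it was 0.18.

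Among all 72 P450 genes the wild type step from 2 to 3 h called 4 higher and 2 lower, where 5.45% of all features were higher and 6.75% lower. The 2 largest rises rested on 1 array. Cyp6d4 read -0.31, 0.30 and 2.43 at 3 h, and Cyp4s3 read -0.21, -0.24 and 2.24; wild type 3 h replicate 3 was the high one in both. Without replicate 3 the Cyp6d4 step was 0.26 in place of 0.95 (adjusted p = 0.522) and that of Cyp4s3 -0.02 in place of 0.86 (adjusted p = 0.973). Cyp4d2 rose by 0.35 and Cyp313a4 by 0.34, while Cyp6a22 (-0.89) and Cyp313a2 (-0.30) fell, with adjusted p between 0.0111 and 0.0445. Each lost its call without 1 of the wild type replicate numbers (highest adjusted p 0.278 for Cyp4d2, 0.551 for Cyp313a4, 0.189 for Cyp6a22 and 0.533 for Cyp313a2).

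The step from 3 to 6 h called 1 higher and 4 lower, against 3.7% and 3.54% of all features. Besides Cyp12c1 and spo these were Cyp6d4 (-1.10), Cyp4s3 (-0.82) and Cyp6u1 (-0.45). Without wild type replicate 3 the first of them stood at -0.37 (adjusted p = 0.363), Cyp4s3 at -0.003 (adjusted p = 0.995) and Cyp6u1 at -0.33 (adjusted p = 0.205).

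Over 6 to 10 h in wild type 7 P450 genes rose and 1 fell, spo, where 8.03% of all features rose and 7.56% fell. The 4 steepest rises were in Cyp4e2, Cyp6d5, Cyp6a8 and Cyp4e1, and Cyp9f2 (0.61), Cyp6a18 (0.56) and Cyp12a4 were the others. Over the same hours the median of 5 measured glial markers of 8 listed went from -0.07 at 6 h to 0.44 at 10 h in wild type, that of 5 of 9 tracheal markers from -0.04 to 0.23, 8 of 12 midgut markers from -0.61 to -0.71, 6 of 9 fat body markers from 0.07 to 0.07, 8 of 9 Malpighian tubule markers from -0.07 to 0.06, 3 of 9 oenocyte markers from -0.19 to -0.05 and 9 of 14 muscle markers from -1.80 to -1.86; their part in the rises was not tested.

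Cyp6d5, a clan 3 gene known to be induced by foreign compounds in adult flies, reached the top of the scale. In wild type its values were 0.26, 0.49 and 0.38 at 6 h, 1.07, 0.88 and 0.80 at 8 h, 1.81, 1.56 and 0.18 at 9 h, and 2.78, 2.43 and 2.78 at 10 h. The arrays of 10 h lay above all earlier ones, and the low value at 9 h came from replicate 3, the array least like its group. The slope was 2.14 (SE 0.21, adjusted p = 5.1e-11). At 10 h the eve mutant arrays read 1.30, 0.80 and 1.51 and the ftz mutant arrays 1.38, 1.13 and 1.13. No mutant array at 10 h reached the lowest wild type array. Rises in the mutants alone were 0.67 in eve (adjusted p = 0.017) and 0.88 in ftz (adjusted p = 0.00131), and these slopes differed from the wild type one by -1.47 (SE 0.30, adjusted p = 0.00177) and -1.26 (SE 0.30, adjusted p = 0.00757). The latter call was lost without ftz replicate 3 (-1.03, adjusted p = 0.0762) or wild type replicate 1 (-1.01, adjusted p = 0.0761).

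Cyp4e1 and Cyp4e2, clan 4 neighbours on chromosome arm 2R in the RefSeq annotation of Release 6, rose together in wild type. Cyp4e2 read -2.05, -0.54 and -1.30 at 6 h, 1.47, 0.08 and -0.14 at 8 h, 1.58, 1.13 and 1.24 at 9 h and 1.17, 0.81 and 1.97 at 10 h. Its arrays at 9 and 10 h lay above every array at 6 and 7 h. The slope was 2.77 (SE 0.30, adjusted p = 7.69e-10). Cyp4e1 went from -1.04, -0.43 and -0.89 at 6 h to 0.84, 0.59 and 0.44 at 9 h and 0.50, 0.26 and 0.82 at 10 h, with a slope of 1.43 (SE 0.18, adjusted p = 3.4e-08).

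In the mutants Cyp4e2 ended lower, and the slope of Cyp4e1 was lower. Cyp4e2 at 10 h read 0.77, -0.37 and -0.32 in eve mutants and -1.06, -0.97 and -0.71 in ftz mutants, all below the wild type arrays. Averaged over 6 to 10 h the difference was -0.78 in eve mutants (SE 0.15, adjusted p = 5.01e-05) and -1.28 in ftz mutants (SE 0.15, adjusted p = 2.69e-09). With estimated age as a covariate the differences were -1.49 and -1.72 (adjusted p = 2.05e-04 and 1.98e-05). Within slide runs the differences were -0.59 for eve, over 5 times, and -0.17 for ftz, over the 2 times at which a run held both genotypes. Those 2 times were 6 and 7 h, so the ftz value is not comparable with the average over 6 to 10 h. Slopes differed from wild type by -1.73 in eve mutants (SE 0.42, adjusted p = 0.0126) and -2.81 in ftz mutants (SE 0.42, adjusted p = 3.49e-05). The eve difference in slope lost its call without wild type replicate 1 (-1.39, adjusted p = 0.104) and without wild type replicate 3, eve replicate 2 or eve replicate 3 (adjusted p = 0.0774, 0.0527 and 0.0511). For Cyp4e1 the slopes differed by -0.95 and -1.05 (adjusted p = 0.0246 and 0.00992). Both calls were lost without wild type replicate 1 (-0.80 and -0.90, adjusted p = 0.142 and 0.0851) or 3 (adjusted p = 0.12 and 0.0807). The eve call was also lost without eve replicate 3 (adjusted p = 0.182) and the ftz call without ftz replicate 1 (adjusted p = 0.0796). Taken as 10 h minus 6 h, neither difference was called (-0.66 and -0.95, adjusted p = 0.294 and 0.06). Averaged over 6 to 10 h Cyp4e1 stood at 0.03 in wild type, -0.10 in eve mutants and -0.44 in ftz mutants. At 2 h Cyp4e1 was higher in eve mutants, at -0.22, -0.07 and 0.04 against -0.87, -0.90 and -0.69, a difference of 0.74 (SE 0.20, adjusted p = 0.00583). The third gene of the name, Cyp4e3, was called over time with a range of 0.50 and was higher at 2 h by 0.27 in eve mutants and 0.32 in ftz mutants (adjusted p = 0.0295 and 0.0279); both calls were lost without wild type replicate 1 (adjusted p = 0.186 and 0.208).

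Cyp6a8, a clan 3 enzyme linked to insecticide resistance and induced by foreign compounds, rose in wild type from -0.31, -0.34 and -0.40 at 6 h to 1.31, 1.55 and 1.03 at 10 h. The slope was 1.66 (SE 0.24, adjusted p = 4.65e-07). In eve mutants the values were already 1.02, 0.97 and 0.92 at 6 h, 1.83, 1.44 and 1.37 at 7 h and 2.61, 1.67 and 1.75 at 10 h. In ftz mutants they were 0.76, 1.27 and 1.16 at 6 h, 1.49, 2.19 and 1.37 at 7 h and 1.11, 1.29 and 0.53 at 10 h. At 6 and 7 h every mutant array was above every wild type array, and at 10 h the ftz mutant and wild type arrays overlapped. At 3 h the values of all 3 genotypes lay between -0.69 and -0.30. Averaged over 6 to 10 h the gene was higher by 1.35 in eve mutants (SE 0.12, adjusted p = 1.22e-12) and by 0.94 in ftz mutants (SE 0.12, adjusted p = 1.48e-08). With estimated age as a covariate these came to 0.85 (adjusted p = 1.45e-05) and 0.61 (adjusted p = 0.0181), and within slide runs to 1.46 and 1.83. The value of 1.83 covers 6 and 7 h only, so it is not comparable with the average over 6 to 10 h. The ftz slope differed from the wild type one by -2.005 (SE 0.33, adjusted p = 1.76e-04) and the eve slope by -0.71, which was not called (adjusted p = 0.278). Cyp6a8 had 2 rows, whose values correlated at 0.89 over the 63 arrays.

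Across the 72 genes, eve mutants over 6 to 10 h had 16 P450 genes higher and 11 lower than wild type, where 19.6% of all features were higher and 19.8% lower. In ftz mutants 16 were higher and 15 lower, where 20.7% and 19.7% of all features were. Both sets of differences use the same wild type arrays. The shares of P450 genes, 22.2% higher and 15.3% lower for eve and 22.2% and 20.8% for ftz, were near those backgrounds. By clan, eve mutants had 16 of 33 called in clan 3 (11 higher, 5 lower), 8 of 27 in clan 4, 2 of 7 in the mitochondrial clan and 1 of 5 in clan 2. In ftz mutants the counts were 13, 12, 4 and 2. With slide runs as a term eve mutants had 24 called and ftz mutants 16. Calls over all features then went from 4901 to 4724 and from 5023 to 2122. The mutant arrays were ahead of wild type in estimated age over these hours, by the offsets given above; with that age as a covariate eve mutants had 17 called and ftz mutants 26, while the calls over all features went from 4901 to 2598 and from 5023 to 2892.

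After Cyp6a8, the genes most above wild type in eve mutants were Cyp6a18 (0.51), Cyp6a23 (0.46), Cyp301a1 and Cyp6t1 (0.39), all but Cyp301a1 of clan 3. Over the 15 arrays Cyp6a18 ran from -0.23 to 0.57 in wild type, with a median of -0.01, and from 0.21 to 0.94 in eve mutants, with a median of 0.58. Its 3 arrays in eve mutants were above all 3 wild type arrays at 6, 7, 8, 9 and 10 h. In ftz mutants Cyp6a18 was higher by 0.39 (SE 0.05, adjusted p = 1.91e-08), Cyp28a5 by 0.43 (SE 0.06, adjusted p = 1.44e-07) and Cyp28c1 by 0.34 (SE 0.07, adjusted p = 3.98e-05). The Cyp6a18 values of its 2 rows correlated at 0.36. With 1 row for each symbol its ftz slope difference went from -0.82 (adjusted p = 2.84e-04) to -0.24 (adjusted p = 0.627), and the Cyp6a23 difference in eve mutants from 0.46 to 0.28 (adjusted p = 0.00827). With slide runs as a term the Cyp28c1 difference was 0.25 (adjusted p = 0.0858).

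On the lower side, Cyp4e2 was followed in both mutants by Cyp6v1 and Cyp6a9, clan 3 genes. Over the 15 arrays Cyp6v1 ran from -1.83 to -0.10 in wild type with a median of -1.06, and from -2.95 to -0.81 in ftz mutants with a median of -2.16. The difference was -1.09 in ftz mutants (SE 0.17, adjusted p = 1.78e-06) and -0.56 in eve mutants (SE 0.17, adjusted p = 0.00777). The eve call was lost without eve replicate 3 (-0.33, adjusted p = 0.154) and without wild type replicate 3 (adjusted p = 0.0744), and the value was -0.86 without eve replicate 1. Slide runs as a term (adjusted p = 0.0573) and estimated age as a covariate (adjusted p = 0.105) also ended the eve call. So did the replicate block (adjusted p = 0.0702) and the 5 times averaged (adjusted p = 0.187). In ftz mutants the difference with estimated age was -1.18 (adjusted p = 9.44e-05). At 6 h the ftz mutant arrays read -2.22, -2.27 and -2.64 against -1.40, -0.91 and -0.10 in wild type, with no overlap. Cyp6a9 differed by -0.79 in ftz mutants (SE 0.14, adjusted p = 1.56e-05) and by -0.43 in eve mutants (SE 0.14, adjusted p = 0.0133). The eve call of Cyp6a9 was lost without eve replicate 3 (adjusted p = 0.0763) or wild type replicate 3 (adjusted p = 0.0805). With slide runs as a term it was lost as well (-0.28, adjusted p = 0.099). Further genes were Cyp4c3 in ftz mutants (-0.47, adjusted p = 2.99e-07), and Cyp6d5 (-0.33, adjusted p = 0.00975) and Cyp4d20 (-0.24, adjusted p = 0.0377) in eve mutants. The calls of Cyp6d5 and Cyp4d20 were lost with 1 replicate number left out (highest adjusted p 0.107 and 0.258) and with the replicate block (adjusted p = 0.102 and 0.188). With estimated age as a covariate the Cyp6d5 difference was -0.89 (adjusted p = 0.00119), and that of Cyp4d20 was -0.22 and not called (adjusted p = 0.202).

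**Figure D3:**
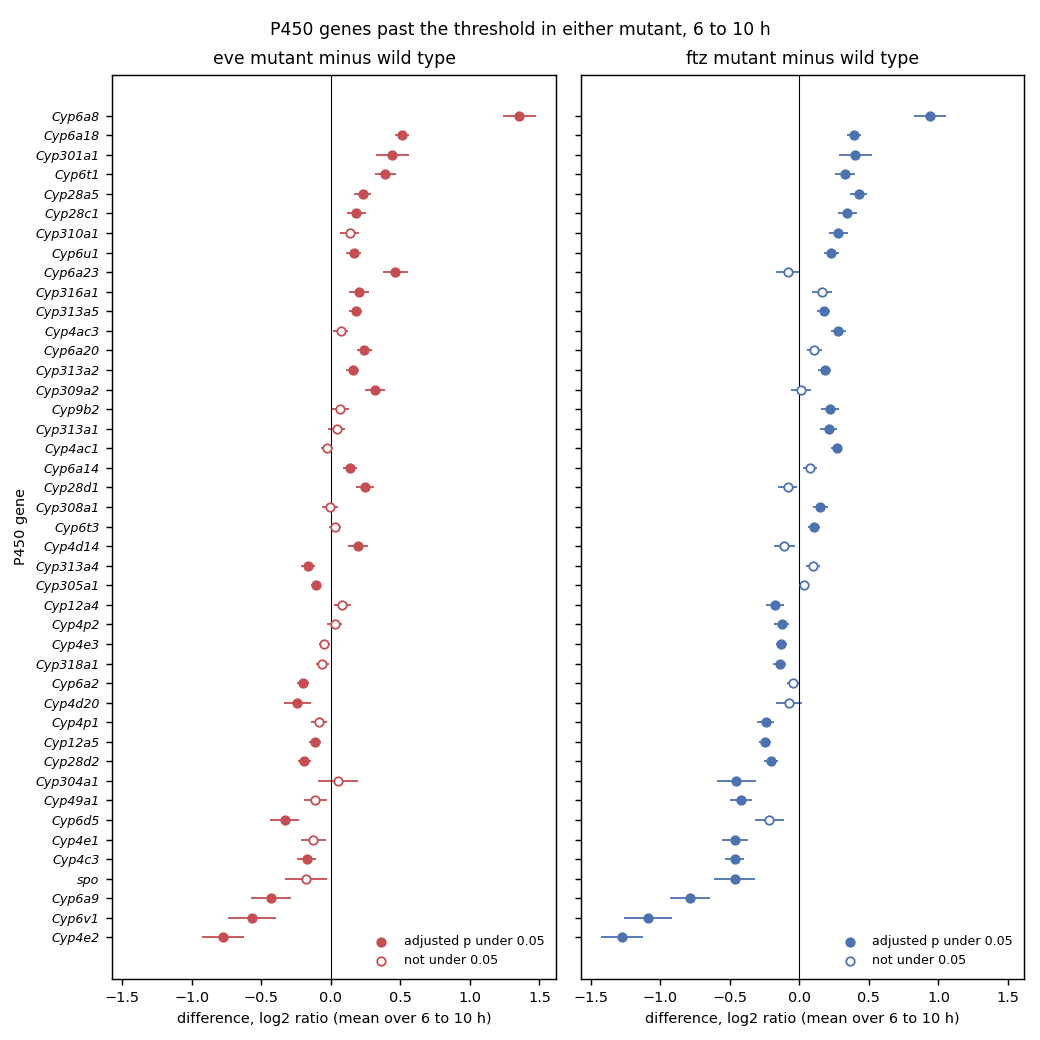
Points are differences from wild type in log2 units, averaged over 6 to 10 h (15 arrays a genotype), and bars their standard errors, for the P450 genes called in either mutant; filled points passed an adjusted p of 0.05. Cyp6a8 is highest and Cyp4e2 lowest in both panels, which share their wild type arrays.

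Compared with each other over 6 to 10 h, eve and ftz mutants differed in 27 P450 genes, 17 higher and 10 lower in eve, where 17.3% of all features were higher and 18.7% lower. The largest were Cyp6a23 (0.54, SE 0.09, adjusted p = 6.44e-06), Cyp6v1 (0.53), Cyp304a1 (0.50), Cyp4e2 (0.50) and Cyp6a8 (0.42) on the higher side. Cyp6a23 over the 15 arrays ran from -0.49 to 0.23 in eve mutants and from -1.13 to -0.20 in ftz mutants, with medians of -0.13 and -0.70. On the lower side were Cyp4ac1 (-0.29, SE 0.04, adjusted p = 5.23e-07), Cyp313a4 (-0.26, SE 0.05, adjusted p = 3.92e-05), Cyp4ac3 (-0.21), Cyp28a5 (-0.20) and Cyp313a1 (-0.17). With 1 replicate number left out the call was lost for Cyp6v1, Cyp304a1, Cyp4e2, Cyp6a8, Cyp4ac3, Cyp28a5 and Cyp313a1 (highest adjusted p 0.339, 0.0904, 0.0941, 0.07, 0.0548, 0.0878 and 0.375), and with 1 row for each symbol Cyp6a23 stood at 0.23 (adjusted p = 0.0326) and Cyp6a8 at 0.77 (adjusted p = 3.99e-07). With slide runs as a term 8 P450 genes were called, and the calls over all features went from 4477 to 1741.

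Before 6 h the genotype comparisons had 3 arrays against 3. At 2 h eve mutants had 4 P450 genes higher and 4 lower, against 10.3% and 11.3% of all features. Besides those given, Cyp308a1 (0.45) and Cyp305a1 (0.24) were higher and Cyp312a1 (-0.41) and Cyp6a14 (-0.32) lower. Each of these 4 lost its call with 1 replicate number left out (highest adjusted p 0.0824, 0.15, 0.076 and 0.114). At 2 h ftz mutants had 4 higher and 0 lower, against 2.37% and 3.73%. The count of 0 stood at 0 with robust moderation and at 1 with array weights or with the arrays of the comparison only; 10 of the 72 had an unadjusted p under 0.05 in either direction. Cyp310a1, a clan 3 gene, read 1.37, 1.5 and 1.60 in ftz mutants at 2 h against 0.67, 0.55 and 0.51 in wild type. The groups did not overlap, and the difference was 0.91 (SE 0.15, adjusted p = 6.85e-05). Cyp6d2 was higher by 0.83 (SE 0.22, adjusted p = 0.0125), a call lost without ftz replicate 3 (adjusted p = 0.0943) or wild type replicate 1 (adjusted p = 0.0553).

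At 3 h eve mutants had 3 P450 genes higher and 1 lower, where 5.4% of all features were higher and 4.17% lower. In ftz mutants 2 were higher and 4 lower, where 6.65% and 7.07% of all features were. Cyp12c1 led both, and Cyp9b2 was higher by 0.44 in eve mutants (adjusted p = 0.0437) and 0.54 in ftz mutants (adjusted p = 0.00842). Without wild type replicate 1 the Cyp9b2 values were 0.25 (adjusted p = 0.35) and 0.35 (adjusted p = 0.135). Cyp6d4 differed by -0.92 in eve mutants and -0.90 in ftz mutants (adjusted p = 0.0288 and 0.0256). These rested on the high wild type 3 h replicate 3, without which they were -0.11 (adjusted p = 0.826) and -0.08 (adjusted p = 0.855), and without wild type replicate 1 they were -1.48 and -1.46. The remaining calls were Cyp305a1 in eve mutants (0.23) and Cyp4d20 (-0.68), Cyp4d2 (-0.41) and Cyp313a4 (-0.35) in ftz mutants. Each of them lost its call with 1 replicate number left out (highest adjusted p 0.198, 0.127, 0.0741 and 0.39).

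Whether the course over 6 to 10 h differed from wild type was tested on the slopes themselves. Estimated age was not a covariate for slopes, so the part of stage in their differences was not tested. In eve mutants 2 P450 slopes were higher and 3 lower than in wild type, where 1.67% of all features were higher and 1.49% lower. In ftz mutants 1 was higher and 5 lower, where 2.12% and 1.4% were. Besides Cyp4e1, Cyp4e2, Cyp6d5, Cyp6a8 and Cyp6a18, these were Cyp310a1 and Cyp309a2.

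Cyp310a1 rose through these hours in eve mutants. Its values there were -0.13, 0.10 and -0.01 at 6 h and 0.87, 0.92 and 1.22 at 10 h, against 0.67, 0.58 and 0.59 and then 0.39, 0.18 and 0.28 in wild type. The eve arrays lay below all wild type arrays at 6 h and above them all at 10 h. The slope differed by 1.30 (SE 0.19, adjusted p = 3.03e-05), and in ftz mutants by 0.51, which was not called (adjusted p = 0.155). Cyp309a2, of clan 3, read -0.63, -0.42 and -0.21 at 10 h in wild type, 0.79, 0.30 and 0.58 in eve mutants and -0.10, -0.04 and 0.31 in ftz mutants. Both mutants were above wild type on every array at 10 h, while at 6 h all ftz mutant arrays (-1.08, -0.82 and -0.73) were below the wild type ones (-0.71, -0.31 and -0.20). Slopes differed by 0.94 (SE 0.21, adjusted p = 0.00483) and 1.001 (SE 0.21, adjusted p = 0.00238). With slide runs as a term they differed by 0.70 (adjusted p = 0.115) and 0.72 (adjusted p = 0.087).

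Within each mutant alone, 12 P450 genes rose and 1 fell over 6 to 10 h in eve mutants, where 9.24% of all features rose and 9.08% fell. In ftz mutants 8 rose and 2 fell, where 9.97% and 9.92% did. The steepest in eve mutants were Cyp310a1 (1.04), Cyp4e2 (1.04), Cyp309a2 (0.99), Cyp4aa1 (0.97) and Cyp6a8 (0.95), and the one that fell was Cyp6u1 (-0.42). In ftz mutants they were Cyp309a2 (1.04), Cyp6v1 (0.98), Cyp6d5 (0.88), Cyp9f2 (0.64) and Cyp28a5 (0.52), and spo (-1.21) and Cyp9h1 (-0.39) fell.

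**Figure D4:**
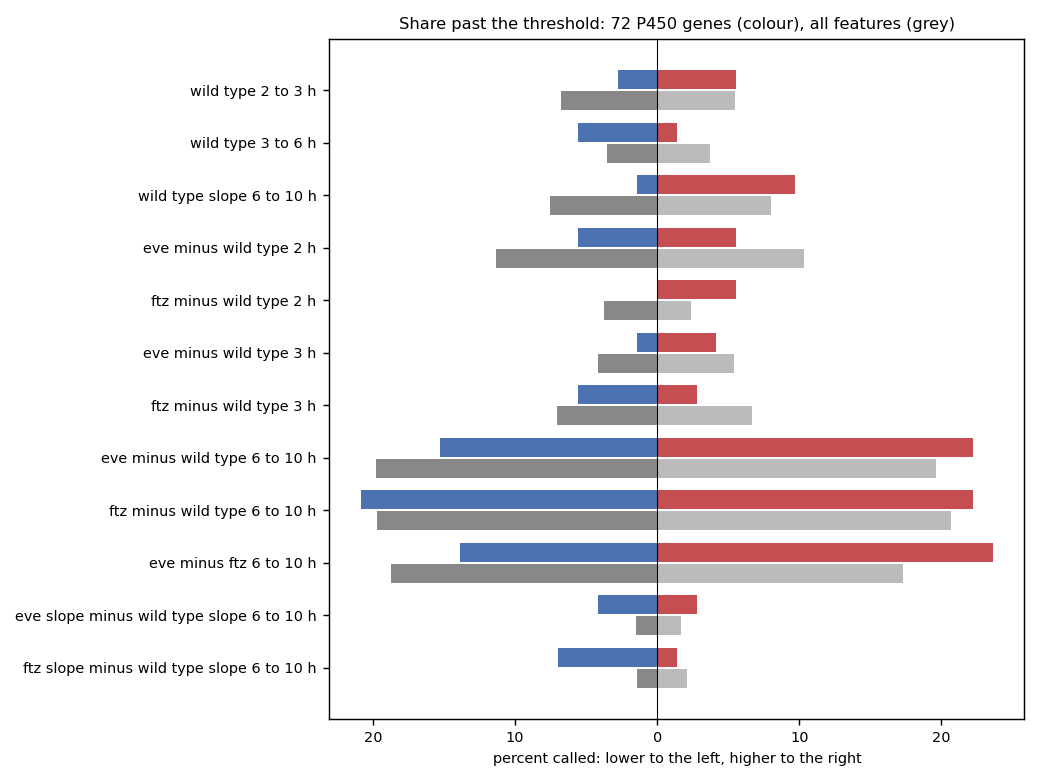
Bars give the percent called higher (right) and lower (left) in each comparison, for the 72 P450 genes in colour and all 12424 features in grey. For eve minus wild type over 6 to 10 h, 22.2% of P450 genes were higher and 15.3% lower, against 19.6% and 19.8% of all features.

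P450 genes of the fly lie in tandem clusters. In the RefSeq annotation of Release 6, 22 pairs of the 72 were nearest P450 neighbours with under 10 kb between them. Over the 21 group means the profiles of these pairs correlated with a median r of 0.32, from -0.33 to 0.90, and the median over all 2556 pairs was 0.05; the points share arrays and the course of time, and probe sequences were not used here, so signal shared between similar genes was not tested. Cyp4e2 and Cyp4e1 were the most alike (0.90), followed by Cyp4p2 with Cyp4p1 (0.65), Cyp12a5 with Cyp12a4 (0.65) and Cyp309a1 with Cyp309a2 (0.61). Cyp6a8 and its neighbour Cyp6a21 had an r of -0.04, and Cyp6a9 and Cyp6a20 of -0.33.

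The cyclophilin Cyp1, which folds proteins and is no P450, changed at the early times. It fell from 2 to 3 h in wild type (-0.72, adjusted p = 0.0245) and rose from 3 to 6 h (1.23, adjusted p = 2.19e-04). At 3 h Cyp1 was higher by 1.30 in eve mutants (adjusted p = 7.13e-05) and by 1.29 in ftz mutants (adjusted p = 6.13e-05). Cyp40 was called over time (adjusted p = 0.00195).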

How the data were processed

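Whole-embryo RNA was hybridised on 63 two-colour arrays against a pooled reference. The deposited values are log ratios, taken as log2. Limma was used by the authors, per the submitters' processing notes, its version not given in the sources used here; base and side of the ratio are not stated. All arrays hold the same sorted values, within 0.000784, so they were quantile normalised before deposit. Of 20000 rows, 6772 were blank. Rows of 1 symbol were averaged, leaving 12424 features; 8 members had over 1 row, and probes of several symbols named no gene.

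A model of 21 group means (limma 3.58.1, R 4.3.3, 42 residual degrees of freedom) gave each difference, the mean over 5 late times and the slope. Benjamini-Hochberg adjustment ran over all features. The fit was tested on simulated data, recovering 100% of changes of 0.5 for eve against wild type over 6 to 10 h (12424 features) and 48% at 2 h. Simulated noise was independent between arrays, so recovery with correlated arrays was not tested. Named are spo, Cyp18a1, the pathway lists, the 10 widest courses, up to 5 genes per direction and contrast, and 5 uncalled genes. Members and lists were chosen with earlier results of these data known. Alternatives covered moderation, array weights, samples fitted, slide runs, age, rows per symbol, low-variance features, the replicate block and each replicate left out. Age was a covariate only for the mean differences over 6 to 10 h, not for slopes. The number of arrays limits the precision.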

Additional observations from a re-analysis of the deposited data

Results flagged for a closer look

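Slopes over 6 to 10 h that differed between a mutant and wild type by the test of the difference itself (limma, adjusted over all features) are worth a second look. In eve mutants the difference was 1.30 log2 units over 4 h for Cyp310a1 (adjusted p = 3.03e-05), 0.94 for Cyp309a2 (adjusted p = 0.00483), -0.95 for Cyp4e1 (adjusted p = 0.0246), -1.73 for Cyp4e2 (adjusted p = 0.0126) and -1.47 for Cyp6d5 (adjusted p = 0.00177). In ftz mutants it was 1.001 for Cyp309a2 (adjusted p = 0.00238), -1.05 for Cyp4e1 (adjusted p = 0.00992), -2.81 for Cyp4e2 (adjusted p = 3.49e-05), -0.82 for Cyp6a18 (adjusted p = 2.84e-04), -2.005 for Cyp6a8 (adjusted p = 1.76e-04) and -1.26 for Cyp6d5 (adjusted p = 0.00758). Both sets share the wild type arrays. Kept under every alternative run were Cyp310a1 and Cyp6d5 in eve mutants and Cyp4e2 and Cyp6a8 in ftz mutants. Each of the other calls listed here was lost under at least 1 alternative.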

How the results depend on the processing

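Of 90 calls on named P450 genes, 37 were kept under every alternative run. Counts of called P450 genes moved by over 1.5 times as follows. The time course gave 7 without 2 and 3 h, an alternative chosen after seeing the data (16 with them). With array weights the step from 2 to 3 h gave 10, eve at 2 h 15, ftz at 2 h 13 and eve at 3 h 10, while the calls over all features went from 1516 to 2616, 2682 to 3898, 758 to 2432 and 1189 to 2571. With the arrays of the comparison only, the step from 3 to 6 h gave 1, ftz at 2 h 11 and eve at 3 h 2. With slide runs as a term the counts were 3 for 2 to 3 h, 3 for 3 to 6 h, 16 for ftz at 6 to 10 h (6 higher, 10 lower), 8 for eve against ftz, 3 for ftz at 3 h and 0 for eve at 3 h (limma; 5 at an unadjusted p under 0.05). With low-variance features left out, 28 P450 genes were tested and the counts were 3 for 2 to 3 h, 15 and 16 for eve and ftz at 6 to 10 h, 12 for eve against ftz (11 higher, 1 lower), 2 for eve at 2 h and 3 for ftz at 3 h. With estimated age as a covariate eve at 6 to 10 h gave 17, and with the 5 times averaged eve gave 8, ftz 12 and eve against ftz 9. The replicate block gave 14 for eve at 6 to 10 h and 3 for the eve slope difference. The block was no established pairing. Same-numbered arrays correlated with a median of 0.221, 0.126 and 0.112 in wild type, eve and ftz, the lowest pair at -0.254. Differently numbered ones correlated with a median of -0.116, -0.0961 and -0.0451, and 30 of 45 late arrays correlated best with their own number. The main fit took the late arrays as independent, so its p-values over 6 to 10 h leave this correlation out. The 10 h minus 6 h difference gave 3 for the eve slope difference. Leaving out each replicate in turn gave 12 to 16 for the time course, 3 to 4 for 2 to 3 h, 1 to 4 for 3 to 6 h, 7 to 9 for the wild type slope, 18 to 25 for eve and 27 to 34 for ftz at 6 to 10 h, 16 to 30 for eve against ftz, 4 to 9 for eve and 2 to 4 for ftz at 2 h, 1 to 6 for eve and 2 to 6 for ftz at 3 h, and 3 to 6 and 4 to 7 for the eve and ftz slope differences. Without the single array of eve 7 h replicate 1, an alternative chosen after seeing the data, eve at 6 to 10 h gave 28. Signs turned for Cyp4s3 from 2 to 3 h, which ranged from -0.0179 to 1.35 with 1 wild type replicate left out, and otherwise for values that were not called. For spo these were 0.216 in eve at 6 to 10 h with age as a covariate, and the ftz slope difference, from -0.0726 to 0.399 with 1 replicate left out. For Cyp18a1 the wild type slope was -0.0336 as 10 h minus 6 h. With slide runs Cyp18a1 stood at 0.0067 for ftz at 2 h and 0.062 at 3 h. With 1 replicate or 1 array left out Cyp18a1 ranged from -9.2e-05 to 0.052 for the wild type slope, -0.0082 to 0.0663 for eve at 6 to 10 h, -0.112 to 0.0101 for eve against ftz, -0.0692 to 0.0342 for ftz at 2 h, -0.0562 to 0.141 for eve at 3 h and -0.117 to 0.0797 for ftz at 3 h. The value of -9.2e-05 came without the single array of wild type 9 h replicate 3, also an alternative chosen after seeing the data. On simulated data, with noise independent between arrays, a difference of 0.25 was recovered in 60% of features for eve at 6 to 10 h and in 2% at 2 h.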
